A study of Mus musculus with 6 samples.

Results

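The 43 genes described here encode receptors, cues and adhesion molecules that steer growing axons, out of 21887 protein-coding genes. They were taken by name and fall into 5 subfamilies: 12 Eph receptors and ephrins, 5 Robo receptors and Slit ligands, 13 semaphorins, plexins and neuropilins, 7 netrins and netrin receptors, and 6 adhesion molecules. Of 46780 open regions found in the series, 469 lay inside these genes or had one of them as the nearest gene by gene end within 100 kb. The mice were C57BL/6 embryos at E14.5, and open chromatin of their retinas was mapped by ATAC-seq, where a transposase (Tn5) inserts sequencing adapters into accessible DNA. The design set 3 Atoh7 +/+ embryos (wild type) against 3 Atoh7 SE/SE embryos, in which both copies of the Atoh7 shadow enhancer, an extra element with activity overlapping that of the main enhancer, are mutated. Each library held the retinas of a single animal. About 100000 cells per library were transposed and the equivalent of 50000 was amplified, over 17, 18 and 19 PCR cycles for wild type and 15, 16 and 16 for SE/SE. Which library had which cycle number is not labelled, and in every comparison below the genotype cannot be told apart from the amplification.

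Retinal ganglion cells are the projection neurons of the eye, and Atoh7 is a basic helix-loop-helix factor that retinal progenitors need in order to form them. Their axons first have to find the optic disc, then decide at the chiasm whether to cross, and finally map onto their targets in the brain. Ephrins and Eph receptors act by contact and set up the ordered map. Slits repel axons through Robo receptors, semaphorins act through plexins with neuropilins as co-receptors, netrins act through Dcc and the Unc5 receptors, and immunoglobulin-superfamily adhesion molecules hold axons in bundles. A peak in a library's list marks an open stretch of DNA. It reports on promoters and candidate regulatory regions and does not measure the gene's RNA.

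Many peaks described below lie on or next to gene starts. Promoter windows of some guidance genes whose start regions or annotated ends set them apart are shown first. Each runs from 250 bases before to 50 bases after a start listed by RefSeq in GRCm38.p6, is written 5′ to 3′ on the gene's strand, and has the letters CANNTG (the E-box, the core that basic helix-loop-helix factors recognise) in capitals.
Sema6d outer start, chr2:124089719-124090018, plus strand: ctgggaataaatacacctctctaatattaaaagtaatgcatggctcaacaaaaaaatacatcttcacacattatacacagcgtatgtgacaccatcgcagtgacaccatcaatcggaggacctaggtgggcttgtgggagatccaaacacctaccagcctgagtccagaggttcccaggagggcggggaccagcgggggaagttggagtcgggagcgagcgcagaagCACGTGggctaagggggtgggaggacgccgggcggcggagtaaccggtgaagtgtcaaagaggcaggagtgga
Slit3 start, chr11:35121206-35121505, plus strand: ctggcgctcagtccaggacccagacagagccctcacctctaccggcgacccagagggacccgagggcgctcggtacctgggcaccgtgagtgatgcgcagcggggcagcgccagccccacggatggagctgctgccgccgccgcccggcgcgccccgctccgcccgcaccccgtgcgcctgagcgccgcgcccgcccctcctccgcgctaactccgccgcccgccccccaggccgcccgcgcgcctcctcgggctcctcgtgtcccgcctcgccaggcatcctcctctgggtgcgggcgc
Robo2 outer start, chr16:75447244-75447543, minus strand: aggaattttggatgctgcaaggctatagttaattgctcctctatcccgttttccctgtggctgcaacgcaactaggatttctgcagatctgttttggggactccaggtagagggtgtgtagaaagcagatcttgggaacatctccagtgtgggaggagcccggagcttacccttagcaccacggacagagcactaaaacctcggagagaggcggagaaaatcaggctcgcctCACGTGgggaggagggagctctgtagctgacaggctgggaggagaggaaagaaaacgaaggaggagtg
Robo2 inner start, chr16:74411776-74412075, minus strand: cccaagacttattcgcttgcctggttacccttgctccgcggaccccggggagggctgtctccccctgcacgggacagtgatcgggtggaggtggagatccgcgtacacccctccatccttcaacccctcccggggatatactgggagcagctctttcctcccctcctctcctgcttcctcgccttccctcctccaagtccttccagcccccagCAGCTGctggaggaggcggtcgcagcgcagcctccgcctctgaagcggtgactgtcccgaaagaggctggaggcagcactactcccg
Epha8 start, chr4:136956767-136957066, minus strand: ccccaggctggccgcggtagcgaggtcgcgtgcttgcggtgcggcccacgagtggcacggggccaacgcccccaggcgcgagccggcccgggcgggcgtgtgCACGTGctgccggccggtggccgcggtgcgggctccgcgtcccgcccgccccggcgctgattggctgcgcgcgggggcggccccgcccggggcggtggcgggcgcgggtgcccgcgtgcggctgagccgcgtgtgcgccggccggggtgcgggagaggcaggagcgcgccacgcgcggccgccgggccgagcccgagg
Slit2 start, chr5:47982905-47983204, plus strand: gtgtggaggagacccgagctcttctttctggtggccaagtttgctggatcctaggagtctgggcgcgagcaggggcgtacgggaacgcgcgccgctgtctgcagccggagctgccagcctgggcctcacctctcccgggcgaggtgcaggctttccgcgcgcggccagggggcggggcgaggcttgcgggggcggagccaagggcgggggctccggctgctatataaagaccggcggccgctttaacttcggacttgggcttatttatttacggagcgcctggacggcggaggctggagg
Epha6 start, chr16:60605482-60605781, minus strand: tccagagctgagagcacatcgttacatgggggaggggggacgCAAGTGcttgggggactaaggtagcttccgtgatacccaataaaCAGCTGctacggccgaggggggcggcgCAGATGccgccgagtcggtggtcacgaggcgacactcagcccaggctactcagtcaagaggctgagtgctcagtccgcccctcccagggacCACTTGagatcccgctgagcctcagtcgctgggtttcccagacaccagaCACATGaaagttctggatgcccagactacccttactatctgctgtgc
The Sema6d and Slit3 windows held a peak in every SE/SE library and in only 1 and 2 wild-type libraries. The outer Robo2 window held one in 3 SE/SE libraries and 1 wild-type library, while the inner Robo2 window held one in 6 of 6. At Epha8 only SE/SE libraries 1 and 2 had a peak. The Slit2 and Epha6 windows had a peak in 6 of 6 libraries although neither gene had a peak at its annotated ends in any.

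The 6 libraries listed between 27873 and 34797 peaks in wild type and between 39115 and 44242 in SE/SE, at a read depth that is unknown. Near Atoh7, the regions chr10:63089257-63089634 and chr10:63090131-63090667 had a peak in 3 of 3 wild-type and 0 of 3 SE/SE libraries. Peaks at gene ends marked 7 or 8 of 8 retinal ganglion cell genes and 7 or 8 of 8 progenitor genes in each library. Of 6 genes each, pigment epithelium genes were marked in 2 per wild-type and 3 per SE/SE library (Tyr, Rpe65 and Ttr in none), photoreceptor genes in 4 and 4 to 5 (Otx2 in none), endothelial genes in 1 and 2 (Pecam1, Cdh5, Tek and Tie1 in none), lens genes in 1 to 2 and 2 (Cryaa, Cryab, Cryba1 and Bfsp2 in none), and mesenchyme genes in 5 to 6 and 6. Microglia and blood genes were marked in 0 of 6 in every library. The part that these other cell types have in the results below was not tested. In bulk tissue, a region open in more cells and a region more open in each cell cannot be told apart. With 3 libraries against 3, the exact two-sided permutation test has 20 assignments and cannot give a p under 0.1, so no comparison between genotypes here can pass 0.05.

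Most guidance genes were open at an end of the gene in both genotypes. A peak within 1 kb of either annotated end was present in 6 of 6 libraries for 34 of the 43 genes (79.1%), against 55.6% of all protein-coding genes. Longer genes came closer to the guidance share, with 71.9% of genes of 100 kb or more. Among genes with at least 5 regions it was 77.5%, and 77.7% for those of 100 kb or more. Guidance genes with at least 5 regions, of any length, had 83.8% (31 of 37). Per library, 37, 37 and 34 of the 43 were marked in wild type and 39, 39 and 38 in SE/SE. The means were 36.0 ± 1.73 and 38.7 ± 0.577 (SD, n = 3 each), and the groups did not overlap (exact permutation p = 0.1). None of the 43 was marked in all SE/SE and no wild-type library, a pattern seen in 0.864% of all genes, and none showed the reverse, seen in 0.0%. Every library marked the same 6 netrin genes and the same 6 adhesion genes, so the difference lay in the other 3 subfamilies. Eph and ephrin genes numbered 10, 10 and 10 against 11, 11 and 10. Robo and Slit genes numbered 4, 3 and 2 against 4, 4 and 4. Genes of the semaphorin group numbered 11, 12 and 10 against 12, 12 and 12. None of these 3 subfamily differences passed (exact permutation p = 0.4 each, 0.67 after Benjamini-Hochberg adjustment over the 5 subfamilies).

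**Figure D1:**
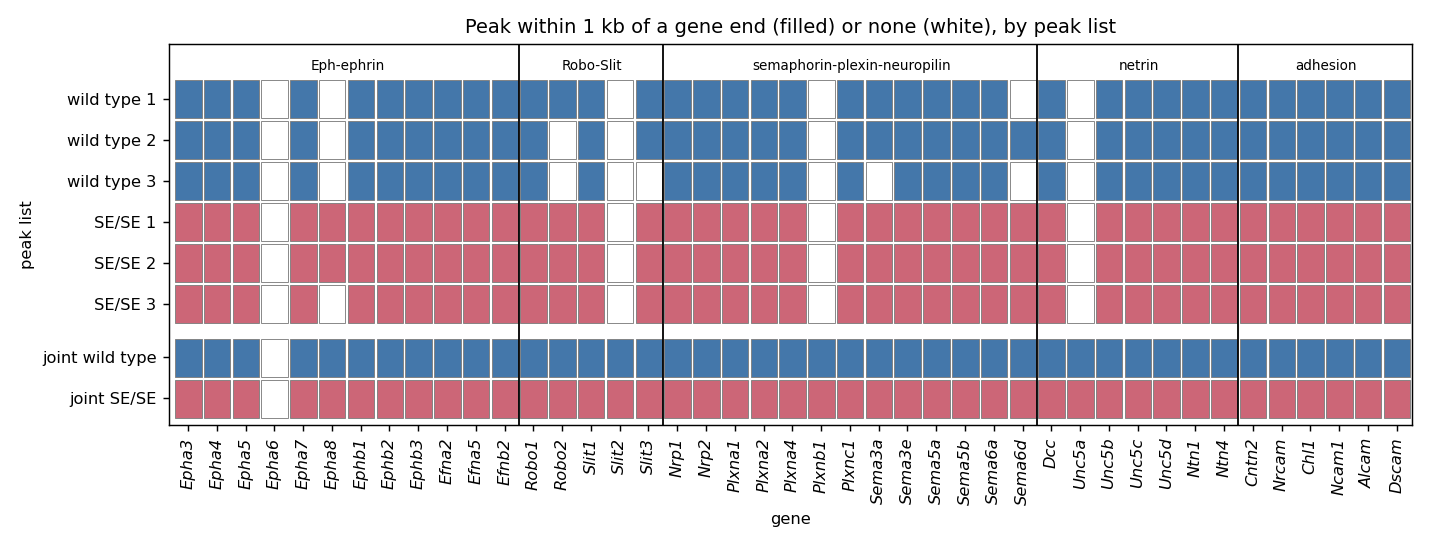
Each column is a guidance gene and each row a peak list, with a filled square where a peak lies within 1 kb of either end of the gene. White squares in some but not all libraries occur at Epha8, Robo2, Slit3, Sema3a and Sema6d, always with more filled squares in SE/SE, while Epha6 alone is white in both joint lists.

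The 5 genes marked in some libraries only were each marked in more SE/SE than wild-type libraries. Sema6d (gene ID 214968, chr2:124089943-124667789), a transmembrane semaphorin that acts in axon crossing at the chiasm, had an end peak in wild-type library 2 and in 3 SE/SE libraries. That peak covered its outer start and was 272 bp wide in wild type and 873, 888 and 881 bp wide in SE/SE. Slit3 (gene ID 20564, chr11:35121456-35708507), a secreted Robo ligand, had its start peak in wild-type libraries 1 and 2 at 227 and 105 bp, none in library 3, and peaks of 719, 716 and 720 bp in SE/SE. In its own list, that peak stood at percentiles 8.28 and 16.2 of signal value in the 2 wild-type libraries and at 46.2, 57.4 and 50.5 in SE/SE; ranks from lists of different length show no change by themselves. Robo2 (gene ID 268902, chr16:73891976-75447443), a Slit receptor on retinal ganglion cell axons, had a peak at its outer start in wild-type library 1 (123 bp) and in all SE/SE libraries (175, 169 and 171 bp). Sema3a (chr5:13124822-13603485), a secreted repellent, was marked in wild-type libraries 1 and 2 and in 3 SE/SE libraries. The region at that end, chr5:13125219-13126070, had a peak in 6 of 6 libraries. In wild-type library 3 the peak in that region lay beyond the 1 kb limit, so Sema3a differed by peak position and not by presence of the region. Its only listed start, 206701 bp from the nearer gene end, had no peak in any library. Epha8 (chr4:136929419-136956859), an ephrin-A receptor, was marked in 0 wild-type libraries and in SE/SE libraries 1 and 2 (223 and 217 bp). Where wild-type libraries had a start peak at Sema6d, Slit3 and Robo2, it stood at percentiles 7.63 to 23.9 of the list. All 5 had an end peak in the joint wild-type list as well as the joint SE/SE list.

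Epha6, Slit2, Plxnb1 and Unc5a had no end peak in any library. RefSeq lists a start of each inside the annotated span, 5380, 1864, 1587 and 4260 bp from the nearer end, and at every such start 6 of 6 libraries had a peak. Counting these, 39 of the 43 genes had a peak in all 6 libraries at an end or a listed start. Of 39 listed starts of the 35 guidance genes in the table, 33 (84.6%) had a peak in 6 of 6 libraries, 4 in some and 2 in none, against 57.0% in 6 of 6 for 21263 starts of all genes.

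At the starts that every library shared, peaks covered more bases in SE/SE, as they did across the genome. For each listed start, the nearest region within 1 kb with a peak in 6 of 6 libraries was taken, and the bases of that region under each library's peaks were counted. Over 33 such starts of guidance genes the median was 1022, 1023 and 1006 bp in wild type and 1073, 1138 and 1091 bp in SE/SE (exact permutation p = 0.1). Every SE/SE library covered more than every wild-type library at 20 of the 33 (60.6%), close to the 58.8% of all such starts, and the reverse held at 0 of 33, against 0.0576%. This measure was added after the data had been seen, and so was the choice of its examples. The start region of Slit2, a Slit made along the retinal and chiasm pathway, was covered over 2006, 2055 and 1990 bp in wild type and 2636, 2874 and 2903 bp in SE/SE. Sema5b, a transmembrane semaphorin that keeps retinal neurites in place, had 762, 945 and 768 bp against 1211, 1219 and 1190 bp. Chl1, a close homologue of L1 on growing axons, had 100, 222 and 86 bp against 501, 425 and 371 bp in the region chr6:103510549-103511049. The groups did not overlap at any of these 3. Epha5, at 2048, 2094 and 2015 bp against 1750, 2025 and 2030 bp, showed no such separation, and neither did Ephb3, at 1055, 1085 and 1006 bp against 1073, 1071 and 1085 bp.

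More regions around the guidance genes had a peak in the SE/SE libraries. Wild-type libraries had a peak in 255, 293 and 206 of the 469 regions and SE/SE libraries in 368, 421 and 443. The means were 251 ± 43.6 and 411 ± 38.6 (SD, n = 3 each), a ratio of 1.63, and the groups did not overlap (exact permutation p = 0.1). All consensus regions together had a ratio of 1.42, and regions of genes of 100 kb or more had 1.56. Guidance genes are long, with a median span of 204 kb against 17.2 kb for all genes, and 34 of the 43 reach 100 kb. As a share of each library's regions, guidance regions made up 0.892, 0.900 and 0.811% in wild type and 0.984, 1.003 and 1.02% in SE/SE (exact permutation p = 0.1). Set against the number of regions of genes of 100 kb or more, guidance regions came to means of 3.26 ± 0.0877% and 3.43 ± 0.0109% (exact permutation p = 0.1). This is not a strict share, because the guidance count includes 55 regions of guidance genes under 100 kb. The ratio of means was 1.64 for guidance genes of 100 kb or more and 1.62 for those under 100 kb. With every list shortened to its 27873 peaks of highest signal value, the guidance regions numbered 223, 224 and 206 against 244, 252 and 255, still without overlap (exact permutation p = 0.1).

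Region by region, 202 of the 469 (43.1%) had a peak in 6 of 6 libraries and 63 (13.4%) had one in all SE/SE and no wild-type library, called SE/SE-specific. Over all 46780 regions the SE/SE-specific share was 8.23%, and over the regions of other genes of 100 kb or more it was 10.1%. The reverse pattern occurred at 0 guidance regions, against 0.0321% of all. The number rests on single libraries and on list length: it was 99 without wild-type library 2, 97 without SE/SE library 1 and 11 of 287 (3.83%, against 1.38% of all regions) with lists of equal length. A further 200 regions had a peak in more SE/SE than wild-type libraries, and 3 had one in more wild-type libraries, namely chr4:136649057-136649156 in Ephb2, chr5:84413108-84413276 in Epha5 and chr8:128541523-128541617 by Nrp1. SE/SE-specific regions were narrow, with a median width of 207 bp, near the 177 bp of regions with a peak in some libraries and under the 493 bp of regions in 6 of 6. In their own lists, the median percentile of signal value was 22.0 for SE/SE-specific regions, 16.7 for those in some libraries and 59.4 for those in all. The highest median percentile over libraries of any SE/SE-specific region was 53.0, at Slit1. In the joint lists, all 63 lay under a peak of each genotype. So did the 202 regions in 6 of 6 libraries and the 204 regions with a peak in some. A region without a library peak is thus not shown to be closed. The 11 SE/SE-specific regions found with lists of equal length were at Epha4 (2 regions), Epha3, Epha6, Slit3, Robo2, Plxna1, Sema5a, Ntn4, Unc5a and Dscam, and the Slit3 one, chr11:35121053-35121805, was its start region.

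**Figure D2:**
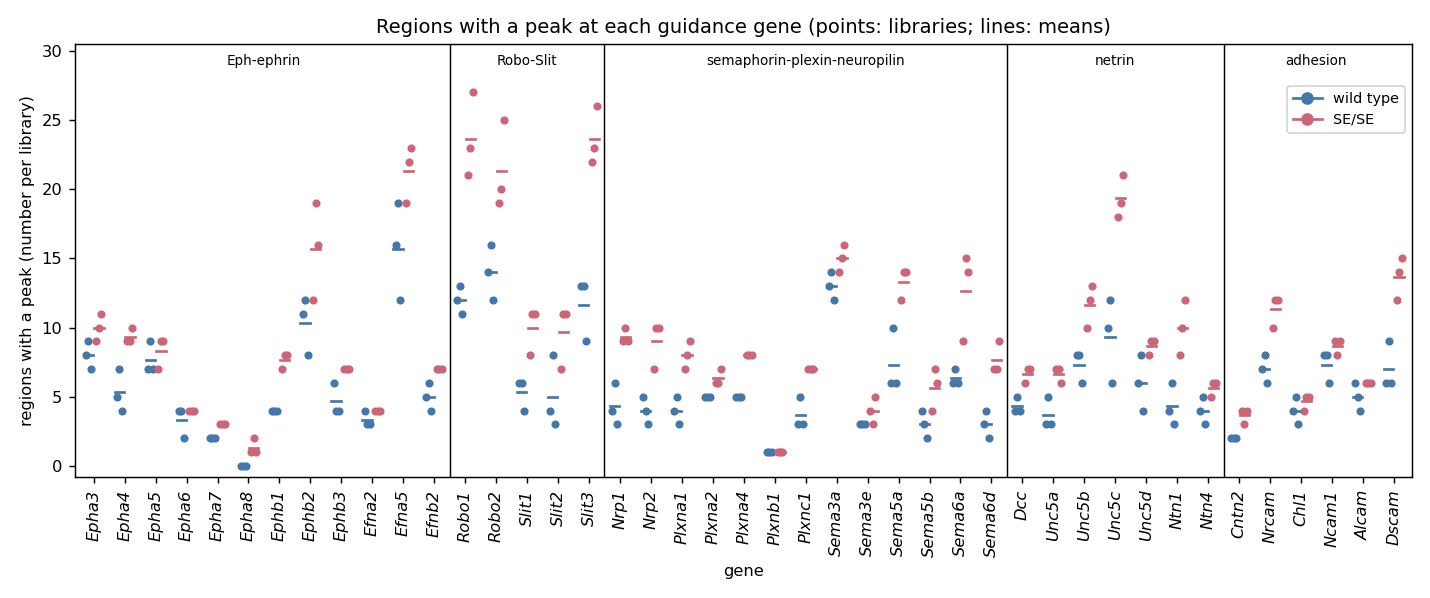
Points give the number of assigned regions with a peak in each library for each guidance gene, and short lines the means of 3 libraries per genotype. The SE/SE points lie above all wild-type points at 27 of 43 genes, with the widest gaps at Robo1, Slit3 and Unc5c, and no gene shows the reverse.

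At 27 of the 43 genes (62.8%) every SE/SE library had more regions with a peak than every wild-type library. Across all genes with a region this was 17.9%, but genes with few regions can hardly separate. Among genes with at least 5 regions it was 54.0%, and 61.5% for those of 100 kb or more. Of guidance genes with at least 5, of which 32 reach 100 kb, it was 64.9% (24 of 37). Regions with a peak in SE/SE libraries only count towards the 5, so these genes were chosen partly by the excess itself. The reverse was seen at 0 guidance genes, against 0.0446% of all. With lists of equal length the count was 10 of 43, beside 2.19% of all genes with a region in that setting. That background has the same weakness, and no share matched for length or number of regions was computed there. Plxnb1, a plexin with a single region in every library, was the only one of the 43 with equal means.

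**Figure D3:**
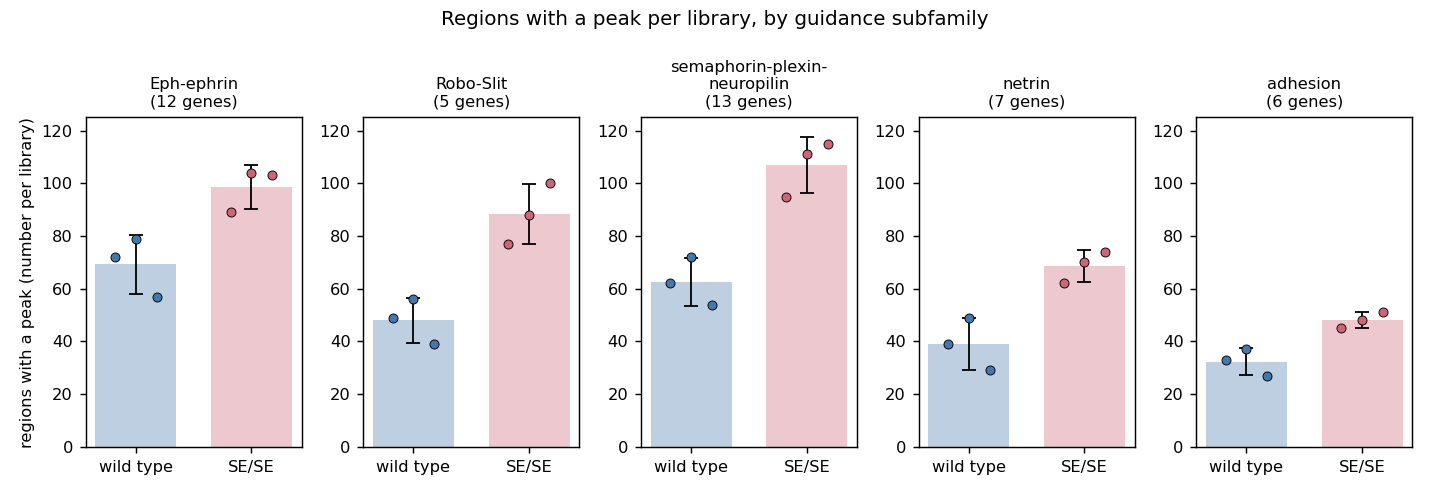
Bars show the mean number of regions with a peak per library in each subfamily, error bars the SD and points the 3 libraries of each genotype. In all 5 panels the SE/SE points lie above the wild-type points, from 77, 88 and 100 against 49, 56 and 39 for Robo and Slit genes to 89, 104 and 103 against 72, 79 and 57 for Eph and ephrin genes.

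The 5 subfamilies were compared by their ratio of means. Robo and Slit genes had the highest at 1.84, followed by netrin genes at 1.76, the semaphorin group at 1.71, adhesion genes at 1.48 and Eph and ephrin genes at 1.42. Regions of other genes of 100 kb or more had 1.56. Those inside genes of that length and over 1 kb from an end had 1.71. Median spans were 587 kb for Robo and Slit genes and 172 kb for Eph and ephrin genes. The part of gene length and place in the order was not tested. Each subfamily had SE/SE libraries above wild type (exact permutation p = 0.1, and 0.1 after Benjamini-Hochberg adjustment over 5). The order was tested as the log2 ratio of a subfamily's regions to those of the other guidance genes. The SE/SE minus wild-type difference was 0.21 for Robo and Slit and −0.27 for Eph and ephrin genes, both with non-overlapping groups (exact permutation p = 0.1, adjusted 0.17). Adhesion genes were at −0.16 (exact permutation p = 0.1, adjusted 0.17), netrin genes at 0.15 and the semaphorin group at 0.08 (exact permutation p = 0.3, adjusted 0.3 for both). The adhesion and semaphorin differences changed sign under some alternatives, while those of Robo-Slit, netrin and Eph-ephrin genes kept their direction under every alternative run. Their size depended on list length. With lists of equal length the difference was 0.063 for Robo and Slit and −0.12 for Eph and ephrin genes (exact permutation p = 0.1 each). For netrin genes it was 0.050 (exact permutation p = 0.7).

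Robo and Slit genes held 106 regions, of which 17 (16.0%) were SE/SE-specific, beside 8.23% of all regions. For regions of other genes of 100 kb or more the share was 10.1%. It was 11.4% for regions inside genes of that length and over 1 kb from an end. Regions of the receptors numbered 26, 29 and 23 in wild type and 40, 43 and 52 in SE/SE, and those of the ligands 23, 27 and 16 against 37, 45 and 48. Robo1 (gene ID 19876, chr16:72027518-73047491), a Slit receptor, had the most regions of any guidance gene, 28, with a peak at 12, 13 and 11 in wild type and 21, 23 and 27 in SE/SE. It also held 8 SE/SE-specific regions, more than any other guidance gene, all inside the gene and between 115 and 453 bp wide. Slit3 regions numbered 13, 13 and 9 against 22, 23 and 26, with 6 SE/SE-specific regions. Robo2 had 14, 16 and 12 against 19, 20 and 25 and 2 SE/SE-specific regions. Robo1, Robo2 and Slit3 thus each separated the genotypes. Slit1, an optic pathway repellent, had 6, 6 and 4 against 8, 11 and 11, also without overlap. Its SE/SE-specific region at chr19:41688119-41688778 was, at 660 bp, the widest of the 63. Slit2 overlapped between genotypes, with 4, 8 and 3 against 7, 11 and 11, and had 0 SE/SE-specific regions. The region shared by all libraries with the highest rank in this subfamily was the Slit2 start region, chr5:47982710-47985612, at percentiles 92.5 to 93.1 of the wild-type lists and 97.2 to 99.2 of the SE/SE lists.

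**Figure D4:**
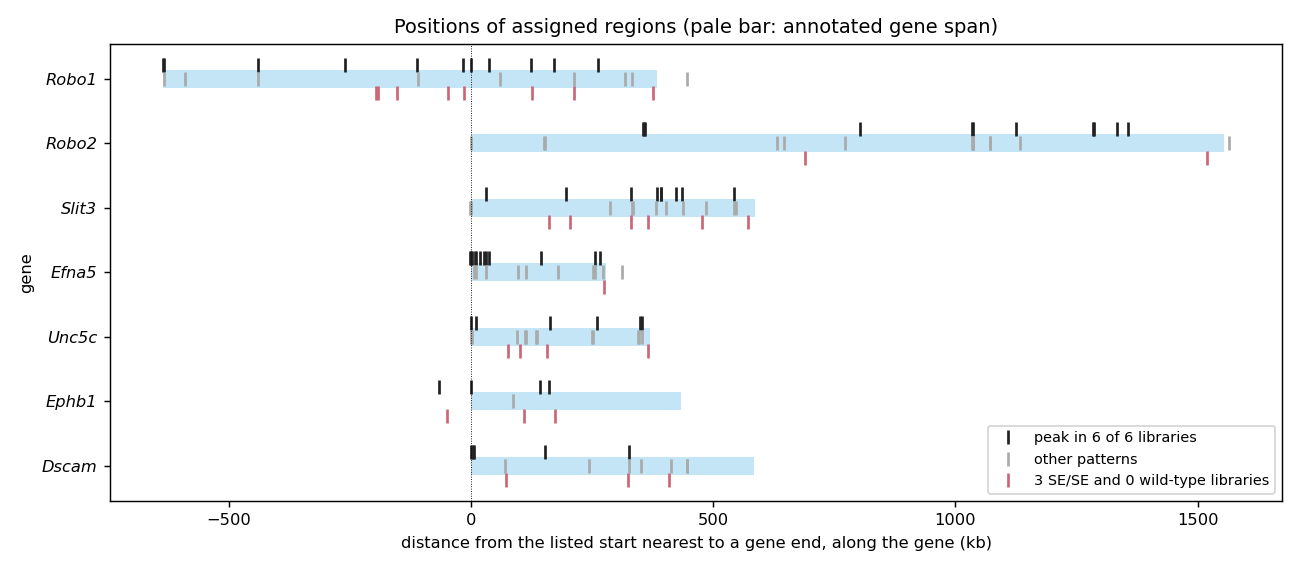
Ticks place the assigned regions of 7 guidance genes along each gene, in kb from the listed start nearest to a gene end, with the pale bar as the annotated span. Red ticks (a peak in 3 SE/SE and 0 wild-type libraries) are spread along the gene at Robo1 and Slit3, whereas Efna5 has its black ticks (6 of 6 libraries) grouped near the start and a single red tick near the far end.

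The semaphorin group held 123 regions, 20 of them SE/SE-specific (16.3%, beside 8.23% of all regions). For regions of other genes of 100 kb or more the share was 10.1%. Semaphorin regions numbered 35, 41 and 31 in wild type and 50, 61 and 64 in SE/SE, plexin regions 18, 21 and 17 against 29, 30 and 32, and neuropilin regions 9, 10 and 6 against 16, 20 and 19. The neuropilins had the highest ratio of any role, 2.20, from 22 regions. Nrp1 (gene ID 18186, chr8:128358591-128505476), the receptor for Sema3a and for vascular endothelial growth factor, had 4, 6 and 3 regions against 9, 10 and 9 and held 4 SE/SE-specific regions. Its regions chr8:128357895-128358019 and chr8:128358116-128358291 lay 634 and 388 bp from the gene end and inside 1 wider joint peak of each genotype. Nrp2, a co-receptor for other class 3 semaphorins, had 5, 4 and 3 against 7, 10 and 10, again without overlap. Sema6d had 3, 4 and 2 against 7, 7 and 9, and Sema6a, its relative, 6, 7 and 6 against 9, 15 and 14. Sema5a, which restrains retinal neurites, had 6, 10 and 6 against 12, 14 and 14. Genotypes did not overlap at any of these 5 genes. At Sema3a they did not separate, with 13, 14 and 12 against 14, 15 and 16, and 12 of its 16 regions had a peak in every library. Plxna4, a plexin that works with neuropilins, had 5, 5 and 5 against 8, 8 and 8 and 2 SE/SE-specific regions. Plxnc1, a plexin for semaphorin 7A, had 3, 5 and 3 against 7, 7 and 7 and also 2. Plxna1 had 4, 5 and 3 against 7, 8 and 9, Plxna2 5, 5 and 5 against 6, 6 and 7, Sema5b 4, 3 and 2 against 4, 7 and 6, and Sema3e 3, 3 and 3 against 4, 3 and 5. Genotypes met at Sema5b and Sema3e and did not overlap at the 4 plexins given here.

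Netrins and their receptors held 77 regions, 11 of them SE/SE-specific (14.3%, beside 8.23% of all regions). For regions of other genes of 100 kb or more the share was 10.1%. Receptor regions numbered 31, 38 and 23 in wild type and 49, 54 and 56 in SE/SE, and netrin regions 8, 11 and 6 against 13, 16 and 18. Unc5c (gene ID 22253, chr3:141465564-141834924), a receptor that turns netrin into a repellent and is carried by uncrossed retinal axons, had 22 regions, at 10, 12 and 6 in wild type and 18, 19 and 21 in SE/SE, with 4 SE/SE-specific. Its start region, chr3:141464590-141466092, was open in 6 of 6 libraries at percentiles 97.5 to 99.0 of the lists. Unc5b had 8, 8 and 6 against 10, 12 and 13 and Unc5a 3, 5 and 3 against 7, 7 and 6, each without overlap. Dcc, the attractive netrin receptor, had 4, 5 and 4 against 6, 7 and 7, whereas Unc5d overlapped at 6, 8 and 4 against 8, 9 and 9. Ntn1 (gene ID 18208, chr11:68209364-68386826), the netrin at the optic disc, had 4, 6 and 3 against 8, 10 and 12, with SE/SE-specific regions at chr11:68226652-68227115, chr11:68385965-68386219 and chr11:68400414-68400596. The second of these lay 734 bp inside the gene end. Ntn4, a basement membrane netrin, had 4, 5 and 3 against 5, 6 and 6, where wild-type library 2 equalled SE/SE library 1.

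Eph and ephrin genes held 109 regions, of which 56 (51.4%) had a peak in 6 of 6 libraries and 10 (9.17%) were SE/SE-specific. Over all regions these shares were 52.1% and 8.23%, and over regions of other genes of 100 kb or more 44.7% and 10.1%. Receptor regions numbered 47, 51 and 38 in wild type and 59, 71 and 69 in SE/SE, and ephrin regions 25, 28 and 19 against 30, 33 and 34. Efna5 (gene ID 13640, chr17:62602957-62881317), a repellent ligand graded across the visual map, had 16, 19 and 12 of 23 regions against 19, 22 and 23, so that its genotypes met at 19. Ephb2, a receptor of ventral retina, had 11, 12 and 8 of 21 against 12, 19 and 16, meeting at 12. Epha3 had 8, 9 and 7 against 9, 10 and 11 and Epha5, graded along the nasal to temporal axis, 7, 9 and 7 against 7, 9 and 9. Genotypes overlapped or met at all 4. In contrast, Epha4 had 5, 7 and 4 against 9, 9 and 10 with 2 SE/SE-specific regions. Ephb1 (gene ID 270190, chr9:101922128-102354693), the receptor that directs uncrossed axons at the chiasm, had 4, 4 and 4 against 7, 8 and 8 with 3. These were chr9:102181297-102181554, chr9:102245632-102245914 and chr9:102403707-102403896, the last lying 49108 bp outside the gene on the side of its start. Efnb2, the chiasm ligand of Ephb1, had 5, 6 and 4 against 7, 7 and 7, and Ephb3 6, 4 and 4 against 7, 7 and 7, both without overlap. Epha7 had 2, 2 and 2 against 3, 3 and 3 and Epha8 0, 0 and 0 against 1, 2 and 1. Epha6, a span of 969 kb, had only 4 regions, at 4, 4 and 2 against 4, 4 and 4, and Efna2 had 4, 3 and 3 against 4, 4 and 4. The highest ranked shared region of all guidance genes was the Epha5 start region, chr5:84415939-84418032, at percentiles 97.7 to 99.8 of the 6 lists.

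Adhesion genes held 54 regions, 26 (48.1%) in 6 of 6 libraries and 5 (9.26%) SE/SE-specific, beside 52.1% and 8.23% of all regions. For regions of other genes of 100 kb or more these shares were 44.7% and 10.1%. Per library the adhesion regions numbered 33, 37 and 27 in wild type and 45, 48 and 51 in SE/SE. Dscam (gene ID 13508, chr16:96587452-97171113), which spaces retinal neurons and promotes axon growth, had 6, 9 and 6 regions against 12, 14 and 15 and held 3 of the 5 SE/SE-specific regions. One of them, chr16:96846143-96846505, was also SE/SE-specific with lists of equal length. Nrcam, an L1-family molecule of the chiasm midline, had 7, 8 and 6 against 10, 12 and 12, and Cntn2, also called TAG-1, 2, 2 and 2 against 4, 3 and 4, both without overlap. The other three overlapped or met: Ncam1 with 8, 8 and 6 against 9, 8 and 9, Alcam with 6, 5 and 4 against 6, 6 and 6, and Chl1 with 4, 5 and 3 against 4, 5 and 5. Chl1 also held the region chr6:103649008-103649342, inside the gene and 83863 bp from its nearer end, at percentiles 94.1 to 98.7 of all lists although it was only 335 bp wide.

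**Figure D5:**
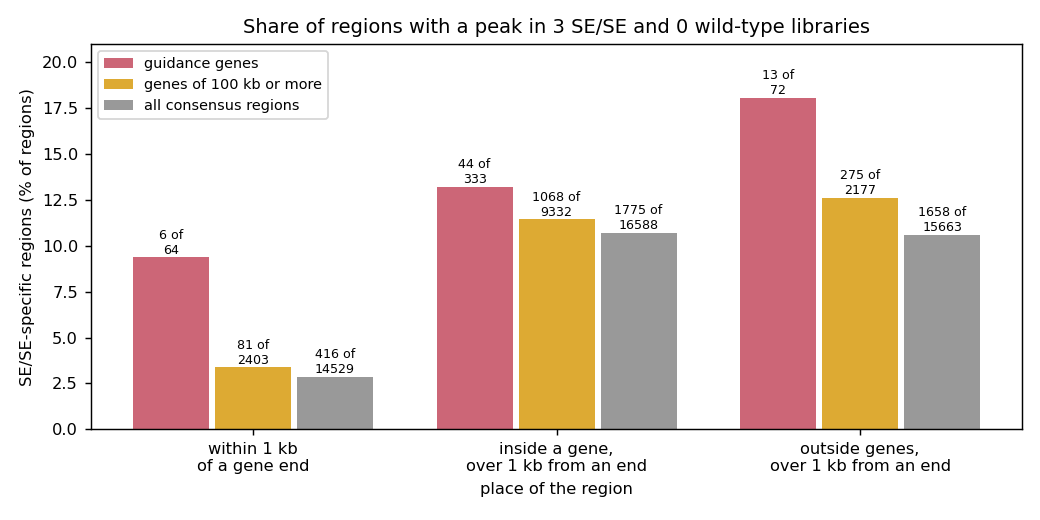
Bars give the percent of regions with a peak in 3 SE/SE and 0 wild-type libraries, by place, for guidance genes, genes of 100 kb or more and all consensus regions, with the counts above. The guidance bar is the tallest in each place, at 9.38% near gene ends, 13.2% inside genes and 18.1% outside genes, and near gene ends it rests on 6 of 64 regions.

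The regions with a peak in more SE/SE than wild-type libraries lay mostly away from gene ends. Of each library's guidance regions, 19.6, 17.1 and 20.4% lay within 1 kb of a gene end in wild type and between 14.2 and 16.3% in SE/SE (exact permutation p = 0.1). With lists of equal length that difference was −0.088 percentage points (exact permutation p = 0.9). Inside genes and over 1 kb from an end, guidance regions had a ratio of 1.69 between genotypes, beside 1.71 for genes of 100 kb or more. Near gene ends the ratio was 1.30 beside 1.13, and outside genes 1.84 beside 1.71. The SE/SE-specific share was 13.2% inside guidance genes and 11.4% inside genes of 100 kb or more. Near gene ends it was 9.38% (6 of 64) against 3.37%, and the 6 regions belonged to Nrp1, Plxna4, Ntn1, Sema5b and Sema6a, with 2 at Nrp1. The Plxna4 region, chr6:32587293-32587446, lay under the same joint peaks as chr6:32587575-32588646, which had a peak in 6 of 6 libraries. Library peaks that do not touch count as separate regions, so neighbouring regions can be parts of 1 wider joint peak. Across the 43 genes, 31 (72.1%) had an SE/SE-specific region, beside 12.6% of all genes and 38.4% of genes of 100 kb or more, and 15 had at least 2. With at least 5 regions the share was 78.4% of guidance genes, 52.5% of all genes and 60.7% of genes of 100 kb or more. SE/SE-specific regions count towards those 5. The 12 guidance genes without one were Epha3, Epha5, Epha6, Epha8, Efna2, Slit2, Plxnb1, Sema3e, Unc5d, Chl1, Ncam1 and Alcam.

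The joint lists, which the authors named for a genotype, gave the guidance genes 1125 peaks in wild type and 1358 in SE/SE. Of the wild-type joint peaks, 42 (3.73%) overlapped no SE/SE joint peak, against 6.28% of all joint peaks. Of the SE/SE joint peaks, 312 (23.0%) overlapped no wild-type joint peak, against 22.0% of all, so this share was near that of the genome. By gene, Robo2 had the most in both lists, 80 and 105. Efna5 had 47 and 76, Robo1 68 and 75, Slit3 60 and 72 and Unc5c 45 and 56. These are single lists per genotype, with no replicate to set an error.

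The windows around guidance gene starts were rich in G and C, with a median of 67.0% against 56.3% for all starts and 62.3% for all starts with a peak in 6 of 6 libraries. Letters were searched on both strands of the 39 windows and of 21263 windows of the same length. The E-box CANNTG was present in 46.2% of guidance windows and 69.0% of all, CAGCTG in 7.69 and 15.6%, CAGATG in 2.56 and 14.6%, and CATATG in 0 and 3.19%; each of the last 3 is also an E-box. The GC box GGGCGG was present in 64.1 and 46.2%, CCAAT in 23.1 and 38.2%, the homeodomain core TAATTA in 2.56 and 4.53% and TAATCC in 0 and 6.42%. Among starts with a peak in 6 of 6 libraries, the GC box was present in 22 of 33 guidance windows beside 68.6% of all, the E-box in 13 of 33 beside 61.3%, and CCAAT in 8 of 33 beside 38.4%, so the GC-box gap was not seen there. The windows printed above differ in their E-boxes. The outer starts of Sema6d and Robo2 and the Epha8 start, each with a peak in some libraries only, carry CACGTG. The Slit3 start, also with a peak in some libraries only, holds no E-box. Of the windows with a peak in 6 of 6 libraries, that of Slit2 holds no E-box, the inner one of Robo2 holds 1 (CAGCTG) and that of Epha6 holds 5. The windows of Plxnb1 and Unc5a, not printed, hold none. CACGTG, an E-box chosen after the windows had been read, was present in 3 of 4 guidance starts with a peak in some libraries, in 1 of 33 with a peak in all, and in 7.84% of all windows (8.86% of those with a peak in some libraries and 10.3% of those with a peak in all).

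The other genes of the same families and the signalling proteins that act below them were read in the same way. The 52 other guidance genes had end peaks at 41, 41 and 41 genes in wild type and 44, 45 and 46 in SE/SE (exact permutation p = 0.1). Of these, Robo3, which switches Slit responses in crossing axons, Ntn5, a netrin-related gene, and Flrt2, an adhesion ligand of Unc5 receptors, were marked in 3 SE/SE and 0 wild-type libraries. That pattern, at 3 of the 52 genes, was seen in 0.864% of all genes. The only region assigned to Ntn5 had a peak in every library. Regions of the 52 genes numbered 156 ± 19.5 and 232 ± 29.1 (SD, n = 3 each), a ratio of 1.48 (exact permutation p = 0.1). Of their regions, 24 of 266 (9.02%) were SE/SE-specific, beside 8.23% of all regions. The 35 effector genes had end peaks at the same number, 31, in every library. Regions of the effectors numbered 104 ± 12.2 and 154 ± 18.7, a ratio of 1.49 (exact permutation p = 0.1), with 13 of 181 (7.18%) SE/SE-specific. Over regions of genes of 100 kb or more outside the 43 the SE/SE-specific share was 10.1%. Genes with every SE/SE library above every wild-type library numbered 12 of 51 (23.5%) and 13 of 35 (37.1%), beside 27 of 43 for the receptors and cues, whose spans are longer: the median was 27.5 kb in the other guidance genes and 117 kb in the effectors. Across all genes with a region the share was 17.9%, and across genes of 100 kb or more 39.8%.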

How the data were processed

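Open chromatin of 6 E14.5 retina libraries, 3 per genotype, was read from 8 deposited narrowPeak lists, 1 per library and 2 joint lists named for a genotype. Per the submitters' processing notes, the tools were Genrich 0.5, bedtools 2.27.0, BWA, cutadapt and limma, with no role or order, on GRCm38 (mm10); read filters and the Tn5 shift are not given in the sources used here. Every peak in the deposited lists carries the authors' score, −log10 p-values and signal value. Dividing signal value by width and multiplying by 1000, with a cap there, returned the deposited score to within 1 for 100% of peaks, and the lowest deposited signal value was 20.0. These values describe peaks within a list only. The deposited −log10 p was not used in any test. Read depth is unknown, so the number of peaks limits the precision.

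Library peaks on chromosomes 1 to 19, X and Y sharing 1 bp or more were merged into consensus regions, and a library had a region if a peak of its own overlapped it. Genes and starts came from RefSeq tables for GRCm38.p6 (the files use the same build), matched by symbol (43 of 43 genes; 35 in the start table). A region inside several genes counted for each. The range of alternatives covered the 1 kb and 100 kb limits, strict and equal-length lists, and each library left out in turn. Members, gene lists and alternatives were chosen with earlier results of these data known. Genes named in full were, per subfamily, up to 4 with the most regions, those with an end peak in 1 to 5 or in 0 libraries, and those with 2 or more genotype-specific regions; regions were taken by joint signal value or rank. Group differences were tested by exact two-sided permutation of libraries, adjusted over the 5 subfamilies by Benjamini-Hochberg. Python 3.11.15, numpy 2.4.6, pandas 2.3.3 and matplotlib 3.10.9 were used, and the calculations were tested on simulated data.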

Additional observations from a re-analysis of the deposited data

How the results depend on the processing

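Of 395 values recomputed under the alternatives, 4 changed sign and 13 counts or shares moved. The other 378 did not change sign, though some changed in size. They include the differences with the replicate number as a block, which cannot change by construction. With lists of equal length the SE/SE minus wild-type difference in guidance regions was 32.7 in place of 159.3, and that in Eph and ephrin regions 5.0 in place of 29.3 (exact permutation p = 0.3). The number of SE/SE-specific guidance regions was 40 with regions assigned by the nearest gene end only and 11 with lists of equal length, and leaving out each library in turn gave 63 to 99. The log2 difference of the semaphorin group against the other guidance genes was −0.029 with regions inside genes only and −0.065 with signal values of at least 100, and that of the adhesion genes was 0.14 with signal values of at least 100 and 0.061 with equal lengths. The count of genes with end peaks in all SE/SE and no wild-type library was 4 with signal values of at least 100 (Slit3, Sema6d, Cntn2 and Chl1) and 1 with equal lengths (Slit3), and 0 to 1 with each library left out (Robo2, Sema6d and Epha8 without wild-type library 1, wild-type library 2 and SE/SE library 3). Genes with every SE/SE library above every wild-type library numbered 10 with equal lengths and 27 to 35 with each library left out. Apart from the shorter lists, which hold fewer regions, the cause was not tested. Deviations over regions correlated at 0.018, 0.011 and 0.043 between same-numbered libraries, and at −0.034 to 0.016 between libraries of different number. All these values are small, and they do not settle whether replicate numbers mark pairs. With the replicate number as a block the difference in guidance regions was 159.3 (exact sign-flip p = 0.25, the smallest 8 assignments can give). The block averages differences of same-numbered libraries, which equals the difference of means. It could therefore change no size or direction. Peaks near the lists' lower limit cannot be told from absent ones at unknown depth.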
